A study of Mus musculus with 15 samples.

Results

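Of the 12545 genes in the deposited expression table, 10 were examined as receptors, regulators and targets of the Notch pathway. They were picked by name and all 10 were found: the receptors *Notch1*, *Notch2* and *Notch3*, the DNA-binding factor *Rbpj*, the regulators *Dtx1*, *Nrarp* and *Fbxw7*, and the targets *Hes1*, *Heyl* and *Ptcra*. RNA was sequenced from 15 untreated mouse T cell leukemia lines, with 1 library per line and nothing pooled, to compare leukemias that arose with and without *Lef1*. The lines were grown in culture from thymic cells of moribund FVB/NJ mice, and all 15 share the germline loss of *E2a*. In 7 lines this was the only labelled change (*E2a-/-*). The other 8 (DKO) came from mice that also carried loxP-flanked *Lef1* alleles and an Lck-Cre transgene, labelled *E2a-/-Lef F/F* LckCre+, in which Cre is made in T cell progenitors from the DN2 stage. Values are in CPM, the reads of a gene scaled to the total that each library has on genes, and between 4847970 (DKO79.9) and 21681586 (SKO95) reads per line fell on the listed genes.

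Notch receptors are membrane proteins that are cut by ADAM proteases and then by gamma-secretase once a ligand on a neighboring cell binds. The freed intracellular domain enters the nucleus, joins RBPJ on DNA and recruits Mastermind co-activators to turn on target genes. In the thymus Notch1 drives commitment to the T lineage and survival before the pre-T cell receptor checkpoint, and activating *Notch1* mutations are common in T cell leukemia, including leukemias of *E2a-/-* mice. The table gives 1 value per gene, so mutation, cleavage and protein of the receptors were not analysed here.

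The labels were checked first. The targeted gene *Lef1* was at 103, 128 and 210 CPM (lowest, median and highest) in the 8 DKO lines and between 668 and 1558 CPM in 6 of the *E2a-/-* lines. The seventh, the library labelled SKO132, had 59.0 CPM of *Lef1*, less than any DKO line, so *Lef1* alone does not place it in its labelled group. Of genes named below, it had less *Fbxw7* (36.2 CPM) and *Tcf7* (2034 CPM) than every DKO line, and more *Mfng* (64.4 CPM). But its *Nedd4* (69.3 CPM) lay within the DKO range and below every other *E2a-/-* line. Its *Skp1a* (465 CPM) also lay within the DKO range (399 to 632 CPM), and of *E2a-/-* lines only SKO95 had more (466 CPM). *Fbxw7*, *Tcf7*, *Mfng*, *Nedd4* and *Skp1a* each had an unadjusted p under 0.05 in the genotype comparison below. That comparison counted this library as *E2a-/-*, so these genes are no independent check of its label. *Tcf3*, which encodes E2A, had between 117 and 243 CPM in all 15 lines, and reads from deleted and retained exons cannot be told apart in values per gene. All 8 T-lineage markers were listed, with a summed level of 1893 CPM in the library labelled SKO132 and 2763 to 4606 CPM in the other 14 lines. Every line had at least 562 CPM of *Thy1* and 248 CPM of *Bcl11b*, whereas *Cd5* was under 1 CPM in 5 of 15 lines. The library labelled SKO132 was the lowest of all lines for *Cd3d* (47.0 CPM, others 290 to 657), *Cd3g* (142 CPM, others 374 to 1036), *Cd3e* (184 CPM, others 274 to 618), *Lck* (319.5 CPM, others 539 to 1261) and *Cd2* (0.496 CPM, others 3.68 to 203). None of 4 B-lineage and none of 4 erythroid markers was listed, and the 3 of 5 myeloid markers listed summed to 8.99 to 18.9 CPM. Of 5 markers of stroma, endothelium and epithelium, 4 were listed and summed to between 146 CPM (DKOTu3) and 1190 CPM (DKO192.3). The most abundant was *Col1a2* at up to 947 CPM, and *Pdgfrb* reached 411 CPM (DKO79.9). *Epcam* was at most 8.24 CPM (SKO115.2), and *Col1a1* was not listed. The part of these markers in the results below was not tested.

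The library labelled SKO132 stood apart from the other 14 lines in the Notch genes, and its own values are given below. It was also the line least like the others as a whole, with a median rank correlation (rho) of 0.891 with the other 14 lines. The next lowest was SKO115.2 at 0.907. Group means, medians and fold changes include SKO132 unless stated otherwise. *Notch1* was at 31.3 CPM there, against 830 to 2266 CPM in the other lines, and *Notch3* was at 32.2 CPM against 256 to 728 CPM. *Dtx1* had 4 reads (0.221 CPM), and the other lines had 72.1 to 866 CPM. *Nrarp* had no read, whereas every other line had at least 6.28 CPM. The zero came from a library with 18075760 reads on listed genes. Against a floor of 3 reads (0.165 CPM) the median of the other 14 lines was 113-fold higher. By the 95% exact Poisson interval (counting error only) it was at least 91.8-fold higher. *Ptcra* and *Heyl* had 3 reads each. The median of the other lines exceeded the library labelled SKO132 by a ratio of 320 for *Ptcra* (95% exact Poisson interval 109 to 1550, counting error only) and 23.3 for *Heyl* (7.97 to 113). For *Dtx1* this ratio was 952 (372 to 3494).

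The remaining 4 members did not have their lowest value in this library. *Hes1* was at 20.7 CPM, 36.4% of the median of the other lines and just above SKO95 at 20.5 CPM. *Rbpj* at 86.3 CPM, also above 1 other line, and *Fbxw7* at 36.2 CPM were at 84.0% and 86.7% of that median. *Notch2* was at 73.4 CPM, the highest of all 15 lines. In all, 6 of 10 members were lower in the library labelled SKO132 than in each of the other 14 lines, compared with 1103 of all 12545 genes (8.79%). By the difference of log2(CPM + 1) from the median of the other lines, *Dtx1* was the gene ranked 2 from the lowest among all genes, with *Ptcra* at 23, *Notch1* at 25, *Nrarp* at 62 and *Notch3* at 77. These ranks are a description and carry no test. Whether fewer cells of a kind or less RNA per cell lies behind a lower value cannot be told apart in bulk RNA.

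**Figure D1:**
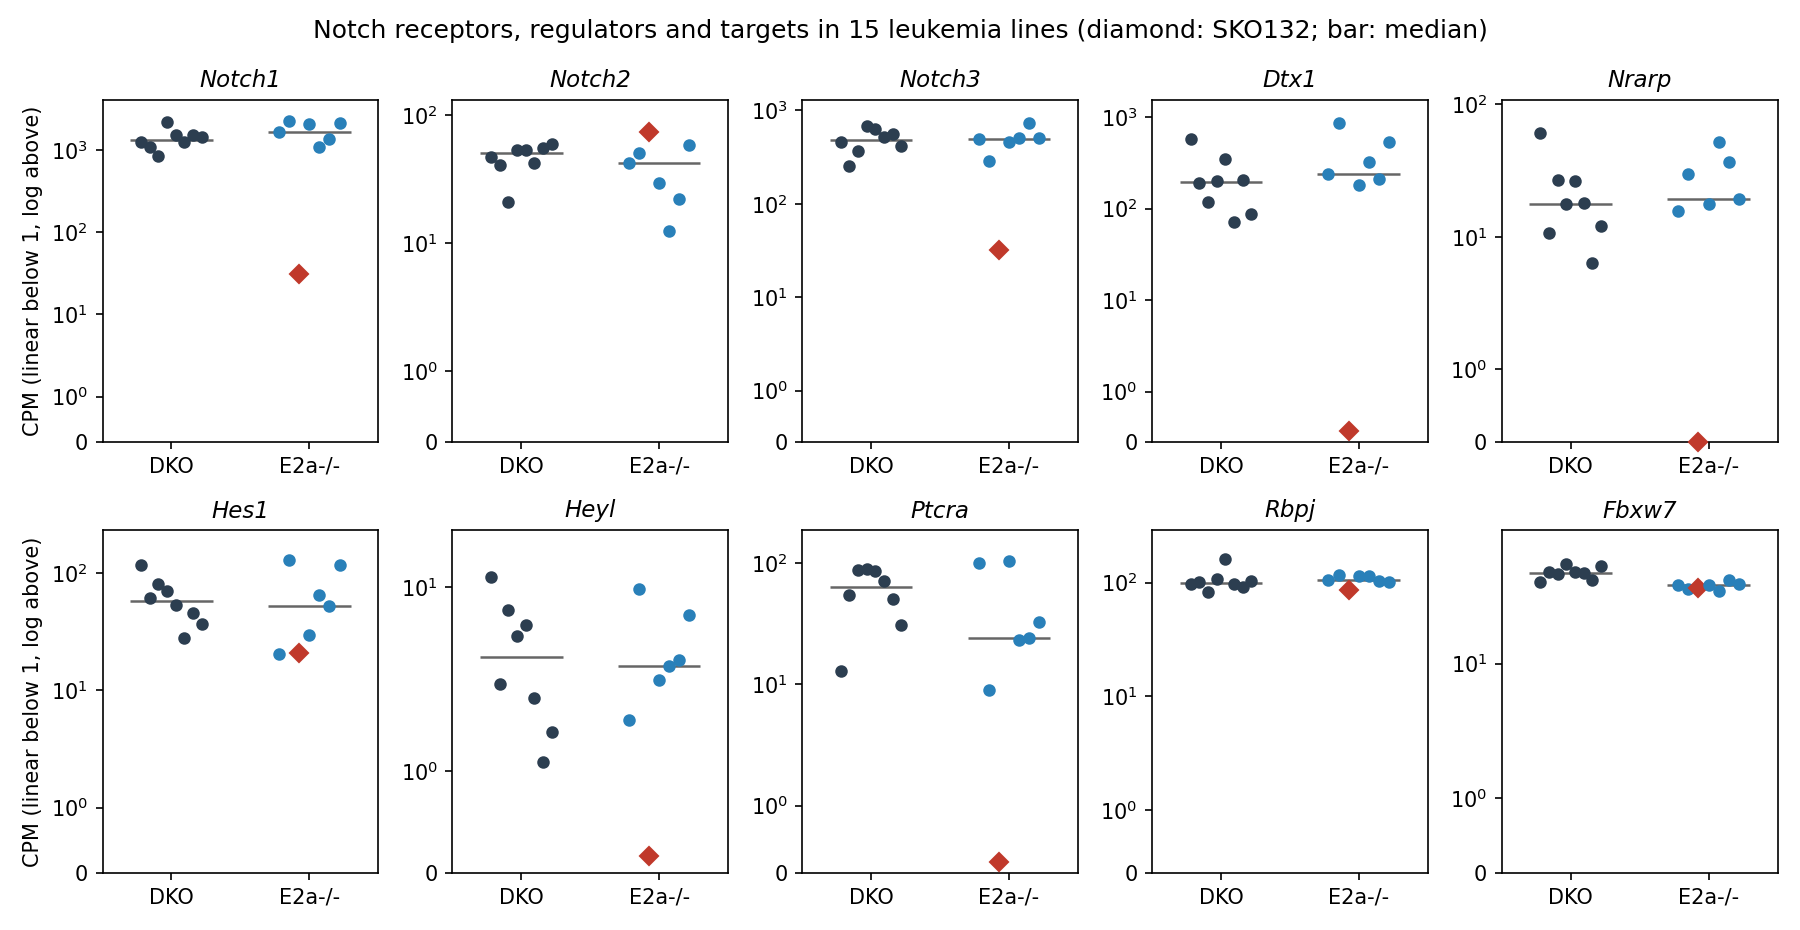
CPM of the 10 members in each line, by genotype (8 DKO and 7 *E2a-/-* lines, 1 point per line, bars at the group median with SKO132 included), on an axis that is linear below 1 CPM and logarithmic above. The diamond is SKO132, which lies below all other points for *Notch1* (31.3 CPM), *Notch3*, *Dtx1*, *Nrarp*, *Heyl* and *Ptcra*, and above all others for *Notch2* (73.4 CPM).

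Each gene was then compared between genotypes on log2(CPM + 1) with limma, with Benjamini-Hochberg adjustment over all 12545 genes and a threshold of 0.01. Fold changes are DKO minus *E2a-/-* on this scale, which understates changes of genes with low CPM. None of the 10 members passed with limma, where 6 of all genes (0.0478%) did. *Fbxw7* alone had an unadjusted p under 0.05, as did 1275 of all genes (10.2%). On whole reads recovered from the CPM values, edgeR's quasi-likelihood test called 0 of 10 members (1 of all genes, 0.00797%), edgeR's likelihood ratio test 0 (155 of all genes, 1.24%) and DESeq2 1 (177 of 12543 genes, 1.41%). Without SKO132, limma again called 0 of 10 (17 of all genes, 0.136%), and again 1 member had an unadjusted p under 0.05 (1531 of all genes, 12.2%). The median log2 fold change of the 10 members was 0.30 with all lines and -0.06 without SKO132, against -0.02 and -0.01 over all genes. Labels name no batch and do not say that the lines came from separate mice, so p-values measure the spread between lines.

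Among the receptors, *Notch1* (chr2:26457903-26516663 in GRCm38), the receptor most often mutated in T cell leukemia, was at 830, 1330 and 2200 CPM (lowest, median and highest) in DKO lines. In the 6 *E2a-/-* lines without SKO132 it was at 1091, 1835 and 2266 CPM. The groups overlapped, with DKO192.3 among the highest lines and SKO156.6 among the lowest, and 7 of 8 DKO lines lay below the *E2a-/-* median of 1639 CPM. With all lines the log2 fold change of *Notch1* was 0.47 (standard error 0.73, limma adjusted p = 0.857; 2-sided exact permutation p = 0.878 over 6435 splits). The direction turned in the count tests with all lines (-0.11 to -0.13), where the mean CPM was also lower in DKO lines (1380 against 1506). Without SKO132 limma gave -0.35 (standard error 0.21, 95% interval -0.80 to 0.11, limma adjusted p = 0.540; exact permutation p = 0.144 over 3003 splits). The DKO mean was 1380 ± 403 CPM (SD, n = 8), and that of *E2a-/-* lines without SKO132 was 1752 ± 471 CPM (SD, n = 6).

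*Notch3* (chr17:32120820-32166852), a receptor that is itself a Notch1 target in developing T cells, was at 256, 487 and 677 CPM in DKO lines. In *E2a-/-* lines without SKO132 it was at 286, 504 and 728 CPM. SKO186.5 was highest and DKO102.4 lowest of these 14 lines, and 4 of 8 DKO lines lay on each side of the *E2a-/-* median. Its log2 fold change was 0.51 with all lines (standard error 0.52, limma adjusted p = 0.759) and -0.04 without SKO132 (standard error 0.23, 95% interval -0.53 to 0.44, limma adjusted p = 0.959).

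*Notch2* (chr3:98013527-98150361), best known in marginal zone B cells, reached at most 5.67 CPM per kb of coding transcript in the 14 lines without SKO132, where *Notch3* had at least 32.0 and *Notch1* at least 87.5 CPM per kb. It was at 20.8, 50.1 and 59.6 CPM in DKO lines and at 12.4, 36.0 and 58.0 CPM in *E2a-/-* lines without SKO132. The low values were in SKO156.6, DKO170.2 and SKO186.5, and 5 of 8 DKO lines lay above the *E2a-/-* median (7 of 8 without SKO132). The log2 fold change was 0.31 (standard error 0.33, limma adjusted p = 0.774). It was 0.48 without SKO132 (standard error 0.32, limma adjusted p = 0.582) and 0.06 without SKO156.6.

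*Rbpj* (chr5:53466152-53657362), the factor through which the Notch intracellular domain reaches DNA, was among the least variable members. It was at 82.1, 99.0 and 161 CPM in DKO lines and at 86.3, 105 and 118 CPM in the 7 *E2a-/-* lines, the library labelled SKO132 being the lowest of the latter. Only DKO241 stood above the *E2a-/-* range, and 6 of 8 DKO lines lay below the *E2a-/-* median. The log2 fold change was -0.03 (standard error 0.12, 95% interval -0.28 to 0.22, limma adjusted p = 0.951). It was 0.01 without DKO170.2, the lowest line, and -0.12 without DKO241.

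*Fbxw7* (chr3:84815268-84979198) encodes the substrate-binding subunit of the ubiquitin ligase that marks the Notch intracellular domain, through its PEST domain, for degradation. It was at 40.8, 47.5 and 54.7 CPM in DKO lines and at 34.8, 38.3 and 42.0 CPM in the 7 *E2a-/-* lines. The ranges overlapped narrowly: 6 of 8 DKO lines were above every *E2a-/-* line, DKO79.9 and DKO713 were below SKO186.5, and all 8 DKO lines were above the *E2a-/-* median. Means were 47.5 ± 4.81 CPM (SD, n = 8) and 37.8 ± 2.45 CPM (SD, n = 7). The log2 fold change was 0.32 (standard error 0.08, 95% interval 0.15 to 0.49), or 1.25-fold. It ranked 120 of all genes by p and did not pass adjustment (limma adjusted p = 0.140; 2-sided exact permutation p = 0.000932, the smallest possible being 0.000155). Without SKO132 it was 0.31 (limma adjusted p = 0.131). DESeq2 gave 0.36 with an adjusted p of 0.000304, while over the alternatives tried the adjusted p of *Fbxw7* ranged from 0.000304 to 0.804.

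*Dtx1* (chr5:120680202-120711927), a Notch-induced gene for a ubiquitin ligase that modulates Notch signaling, differed 12-fold between the lowest and the highest of the 14 lines without SKO132. In DKO lines it was at 72.1, 196 and 579 CPM, and in *E2a-/-* lines without SKO132 at 180, 281 and 866 CPM. SKO115.2, DKO79.9 and SKO163.5 were highest and DKO548, DKOTu3 and DKO170.2 lowest of the 14 lines, and 6 of 8 DKO lines lay below the *E2a-/-* median. With all lines the log2 fold change of *Dtx1* was 0.29 (standard error 1.08, limma adjusted p = 0.951), but -0.57 to -0.58 in the count tests and -0.39 with array weights, and the mean CPM was lower in DKO lines (226 against 335). Without SKO132 it was -0.87 (standard error 0.47, 95% interval -1.87 to 0.13, limma adjusted p = 0.480; exact permutation p = 0.117).

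*Nrarp* (chr2:25180758-25183339) encodes an ankyrin-repeat protein that is induced by Notch and in turn binds and limits the Notch intracellular domain complex. It was at 6.28, 17.8 and 60.6 CPM in DKO lines and at 15.6, 24.6 and 51.8 CPM in *E2a-/-* lines without SKO132. DKO79.9, SKO156.6 and SKO186.5 were highest, and the low end was DKO713, DKO102.4 and DKOTu3. The log2 fold change was 0.19 with all lines (standard error 0.70, limma adjusted p = 0.951), -0.49 without SKO132 (standard error 0.42, limma adjusted p = 0.668) and -0.05 without DKO79.9. With all lines the count tests gave -0.13 to -0.14 and array weights -0.53.

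Of the target genes, *Hes1* (chr16:30064384-30067796), a basic helix-loop-helix repressor, was at 28.0, 57.0 and 117 CPM in DKO lines. In the 7 *E2a-/-* lines it was at 20.5, 52.6 and 129 CPM. The *E2a-/-* lines held both the highest line, SKO115.2, and the lowest, SKO95. Its log2 fold change was 0.20 (standard error 0.42, limma adjusted p = 0.900), and 0.00 without SKO132 (standard error 0.41, 95% interval -0.88 to 0.88). *Heyl* (chr4:123233556-123249875), a related repressor, had 1.11, 4.18 and 11.3 CPM in DKO lines and 1.89, 3.85 and 9.69 CPM in *E2a-/-* lines without SKO132. The groups overlapped, and DKO79.9 and SKO115.2 were the highest lines. The log2 fold change of *Heyl* was 0.20 (standard error 0.47, limma adjusted p = 0.915), and -0.11 without SKO132 (standard error 0.41, limma adjusted p = 0.939) and -0.15 with array weights.

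*Ptcra* (chr17:46755663-46763712) encodes the pre-T cell receptor alpha chain, which pairs with TCR beta before TCR alpha is made. It was at 12.8, 62.9 and 89.7 CPM in DKO lines, and at 8.91, 28.5 and 104 CPM in *E2a-/-* lines without SKO132. Both genotypes spanned nearly the whole range: SKO137.1 and SKO95 were highest and SKO115.2 and DKO79.9 lowest, and 7 of 8 DKO lines were above the *E2a-/-* median of 24.2 CPM. The log2 fold change was 1.27 (standard error 0.79, limma adjusted p = 0.606; exact permutation p = 0.162) and 0.56 without SKO132 (standard error 0.55, limma adjusted p = 0.722). With all lines the count tests gave 0.52 to 0.55 and array weights 0.69 for *Ptcra*.

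The same 3 lines, SKO115.2, DKO79.9 and SKO163.5, had the highest values of both *Dtx1* and *Hes1*. SKO115.2 and DKO79.9 also had the highest *Heyl* and, among the 14 lines, the lowest *Ptcra*. For *Ptcra*, the highest lines SKO137.1 and SKO95 were at 29.3 and 20.5 CPM for *Hes1*. Of 3 markers of NK cells and innate lymphoid cells, 2 were listed, and they summed to 30.9 CPM in DKO79.9, 24.7 CPM in SKO115.2 and 2.53 CPM in SKO163.5, against at most 1.47 CPM in the remaining lines. Nearly all of this was *Nkg7*, *Klrb1c* was at 0 in DKO79.9 and SKO115.2, and *Ncr1* was not listed. The part of these markers in the values of *Dtx1*, *Hes1*, *Heyl* and *Ptcra* was not tested.

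**Figure D2:**
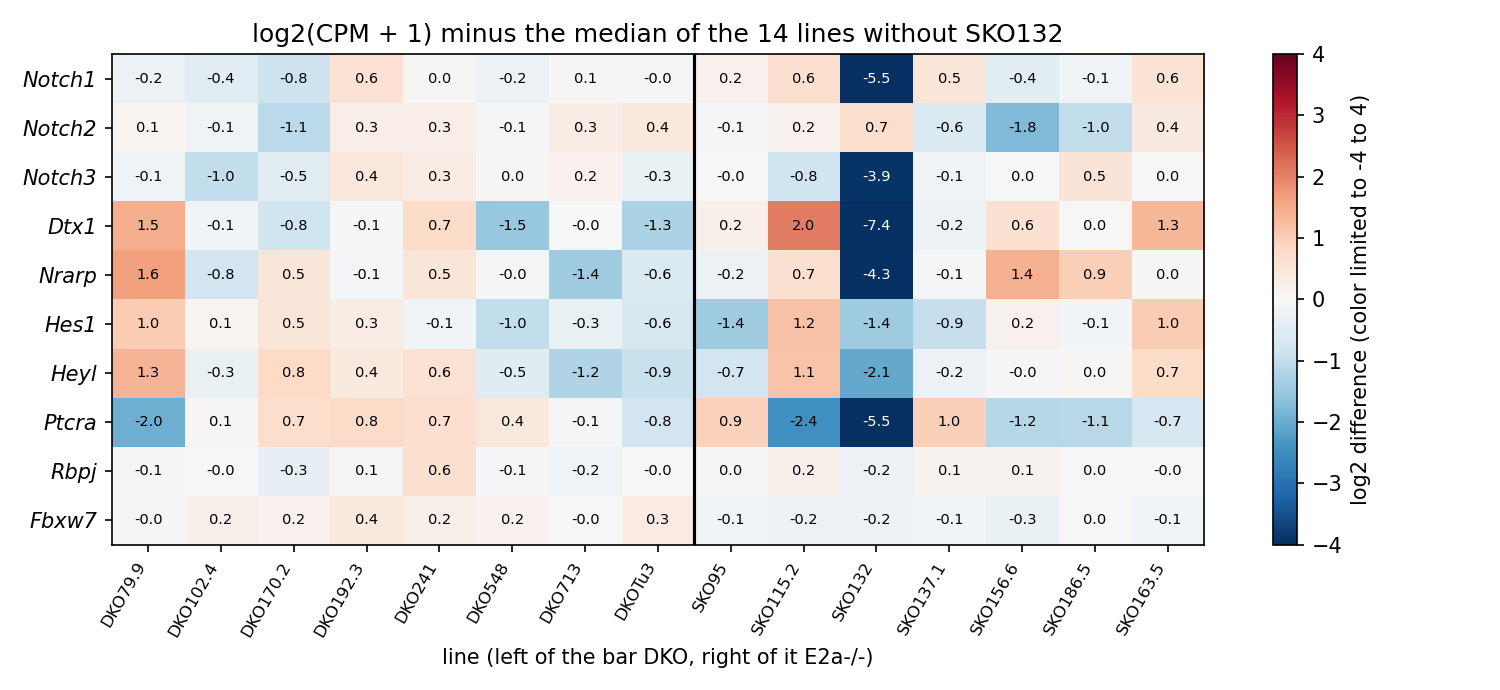
Difference of log2(CPM + 1) of each member (rows) in each line (columns, DKO left and *E2a-/-* right of the bar) from the median of the 14 lines without SKO132, printed in each cell and colored up to 4 in either direction. SKO132 is the column with -5.5 for *Notch1* and -7.4 for *Dtx1*, while the printed values of *Rbpj* and *Fbxw7* run from -0.3 to 0.6.

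Receptor and target levels were compared across the 14 lines, with SKO132 apart, for 6 relations of *Notch1* on log2(CPM + 1). None was past an unadjusted p of 0.05. The highest was with *Dtx1* (Pearson r = 0.42, permutation p = 0.135; Spearman rho = 0.34, p = 0.236), which was 0.13 without DKO170.2 and SKO115.2, the lines farthest from the *Notch1* median. For *Notch3*, r was 0.20 (permutation p = 0.501; rho = 0.23, p = 0.427), and 0.40 without these lines. For *Nrarp*, r was -0.20 (permutation p = 0.495; rho = -0.21, p = 0.466), and -0.28 without them. The targets *Hes1* (r = 0.06, permutation p = 0.827; rho = 0.03, p = 0.927), *Heyl* (r = 0.08, permutation p = 0.780; rho = 0.04, p = 0.890) and *Ptcra* (r = -0.05, permutation p = 0.859; rho = 0.13, p = 0.661) showed no relation past the threshold. Without the same lines their r was 0.00, 0.12 and 0.48. Adjusted over all genes with limma, *Notch1* as the covariate, p was 0.342 for *Dtx1*, 0.700 for *Nrarp*, 0.706 for *Notch3*, 0.890 for *Heyl*, 0.914 for *Hes1* and 0.931 for *Ptcra*, and 0 of 12544 genes had an adjusted p under 0.05. Of 12 relations within a genotype, 1 had an unadjusted p under 0.05. This was *Notch1* with *Notch3* in the 8 DKO lines, with r = 0.75 (exact permutation p = 0.0352; rho = 0.88, exact permutation p = 0.00724). In the 6 *E2a-/-* lines the same relation had r = -0.62 (exact permutation p = 0.20; rho = -0.54, exact permutation p = 0.297), while r was -0.68 with *Nrarp*, 0.50 with *Heyl* and 0.47 with *Dtx1* (exact permutation p = 0.143, 0.311 and 0.347). The difference between the genotypes was not tested.

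Levels of different members were set side by side as CPM per kb of the longest coding transcript, over the 14 lines without SKO132. *Notch1* led with a mean of 162 ± 48.2 CPM per kb (SD, n = 14), followed by *Dtx1* at 73.5 ± 54.9, *Notch3* at 61.3 ± 16.9, *Hes1* at 43.9 ± 23.7 and *Ptcra* at 43.3 ± 26.4 CPM per kb. *Rbpj* had 19.4 ± 3.31, *Fbxw7* 9.71 ± 1.39, *Nrarp* 9.67 ± 6.04, *Notch2* 3.99 ± 1.44 and *Heyl* 1.07 ± 0.688 CPM per kb. Per kb, *Notch1* was higher than *Dtx1* in 13 of 14 lines, but *Dtx1* was higher than *Notch3* in only 6 of 14, and *Hes1* higher than *Ptcra* in 6 of 14. Of neighbors in this order, only *Rbpj* and *Fbxw7* had ranges per kb that did not overlap, and on merged exon lengths these overlapped too (lowest *Rbpj* 6.44, highest *Fbxw7* 7.77 CPM per kb). The order depends on the length used: on the length column of the table, *Ptcra* (92.5) and *Notch3* (61.0) were ahead of *Notch1* (35.2 CPM per kb). In the library labelled SKO132 the order per kb of coding transcript was another, with *Rbpj* highest at 15.7 and *Hes1* next at 14.1. Then came *Fbxw7* at 8.10, *Notch2* at 6.99, *Notch3* at 4.02 and *Notch1* at 3.30 CPM per kb. On merged exons *Hes1* was highest there instead (10.2 CPM per kb, *Rbpj* 6.77), as on the length column (7.25, *Rbpj* 5.27).

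The genes whose pattern was most like *Notch1* over all 15 lines, among 9706 genes that averaged 5 CPM or more, were *Rfx7*, *Dnmt3a*, *Zfp59*, *Tbl1x* and *Crebbp*, with Pearson r of log2(CPM + 1) between 0.95 and 0.98. Each was low in the library labelled SKO132. *Dnmt3a*, which encodes a DNA methyltransferase, was at 0.276 CPM there and at 86.8 to 240 CPM in the other lines, and *Rfx7* was at 2.81 CPM against 104 to 345 CPM. Over the 14 lines without SKO132 the genes most like *Notch1* were *Sin3a*, *Cep97*, *Msl2*, *Senp7* and *Sema4d* (r from 0.84 to 0.89). For *Nrarp* over these 14 lines they were *Alad*, *Patl2*, *Borcs7*, *Plin3* and *Dnajc24* (r from 0.86 to 0.89). These values describe the lines and carry no test.

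Of 69 other pathway genes on fixed lists, 61 were in the table: ligands, *Notch4*, proteases, glycosyltransferases, co-activators, co-repressors, inhibitors and turnover genes, and genes known as Notch targets in the T lineage. Their membership comes from general knowledge, and whether they respond to Notch in these lines was not analysed here. None of the 61 passed limma's adjusted p of 0.01 with all lines, 2 were higher and 3 lower in DKO lines at an unadjusted p under 0.05 (543 and 732 of all genes, 10.2% together), and their median log2 fold change was -0.01 (all genes -0.02). By the likelihood ratio test (1.24% of all genes), by DESeq2 (1.41%) and by limma without SKO132 (0.136%), 1 of 61 passed, and it was *Lef1*, the deleted gene, which is also a Notch target (log2 fold change -2.33, limma adjusted p = 0.0980; -2.91 and 4.88e-06 without SKO132; below the *E2a-/-* median in 8 of 8 DKO lines). *Tcf7*, which encodes the T-lineage factor TCF1, averaged 2862 ± 461 CPM in the 8 DKO lines and 1878 ± 487 CPM (± SD) in the 7 *E2a-/-* lines (log2 fold change 0.66, limma adjusted p = 0.241, above the *E2a-/-* median in 8 of 8). *Nedd4*, a ubiquitin ligase, had 123 ± 93.9 CPM in DKO and 328 ± 161 CPM in *E2a-/-* lines (-2.03, limma adjusted p = 0.407, below the median in 8 of 8). *Mfng*, a glycosyltransferase that modifies Notch, had 37.1 ± 16.0 and 56.4 ± 7.12 CPM (-0.71, limma adjusted p = 0.336, below the median in 7 of 8). *Skp1a*, which encodes a subunit of the ligase that holds FBXW7, had 466 ± 88.6 and 384 ± 62.1 CPM (0.27, limma adjusted p = 0.472, above the median in 8 of 8). Without SKO132 the log2 fold changes were 0.69 for *Tcf7*, -2.36 for *Nedd4*, -0.68 for *Mfng* and 0.32 for *Skp1a*. Their limma adjusted p was 0.170, 0.230, 0.314 and 0.306.

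The most abundant gene of each list, in mean CPM per kb over 15 lines, was *Jag2* for ligands (0.415), *Psenen* for proteases (38.5), *Mfng* for glycosyltransferases (24.7), *Snw1* for co-activators (66.3), *Ctbp1* for co-repressors (73.7), *Skp1a* for turnover (244) and *Tcf7* for the remaining T-lineage genes (973 CPM per kb). These means include SKO132, which had the highest *Jag2* of all lines (4.58 CPM, median 1.56 CPM). *Dll1*, *Dll3* and *Dll4*, the Delta ligands, were not in the table, and *Notch4* was at 0.107 CPM per kb.

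The library labelled SKO132 was the lowest of 15 lines for 10 of the 61 other pathway genes (16.4%, against 8.79% of all genes), 6 of them among the 11 listed T-lineage targets. Named after their values were seen, *Il2ra* was at 0.827 CPM there against 2.72 to 1636 CPM elsewhere, and had the lowest rank of all genes in difference from the median of the other lines. *Il7r* had no read, and the other lines had 0.415 to 262 CPM. The co-activator *Crebbp* was at 0.221 CPM against 16.1 to 98.7 CPM, and *Poglut1*, which adds glucose to Notch, was at 4.58 CPM against 20.1 to 52.9 CPM. *Trib2* and *Igf1r* were at 8.16 and 8.33 CPM, below the lowest other lines at 25.5 and 14.5 CPM. *Ctbp1*, *Cul1* and *Cdca7* were only a little below the lowest other line (202, 151 and 491 CPM against 231, 165 and 516 CPM).

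Promoter sequences from RefSeq (GRCm38.p6) matched 8 of 10 members, and *Hes1* and *Heyl* had no entry. The 250 bases before each listed start were searched on both strands for TGGGAA, the core of RBPJ motifs, and for the E-boxes CAGCTG and CAGGTG, which E proteins can bind. TGGGAA was in 21.6% of 32851 promoters, CAGCTG in 13.0% and CAGGTG in 17.2%. *Ptcra* had 2 matches to TGGGAA and 2 to CAGCTG. *Rbpj* had 2 to TGGGAA and 1 to CAGGTG at 1 of its listed starts and 1 to TGGGAA at the other. The windows of these *Rbpj* starts overlap, so a match can be counted in both. The other 6 matched members had none of these letters in this window. The sequences of *Ptcra* (chr17:46763713-46763962, minus strand) and *Nrarp* (chr2:25180508-25180757, plus strand) are shown because both genes were nearly or wholly without reads in the library labelled SKO132, with matches in capitals. *Dtx1*, with 4 reads in that library, had no match and its sequence is not shown. A relation of matches to reads was not tested. A match is a run of letters and not a bound site.
Ptcra: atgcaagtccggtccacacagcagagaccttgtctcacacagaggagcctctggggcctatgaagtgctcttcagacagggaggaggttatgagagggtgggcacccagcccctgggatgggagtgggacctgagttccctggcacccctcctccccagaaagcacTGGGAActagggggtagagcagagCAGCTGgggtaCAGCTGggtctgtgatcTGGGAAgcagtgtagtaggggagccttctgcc
Nrarp: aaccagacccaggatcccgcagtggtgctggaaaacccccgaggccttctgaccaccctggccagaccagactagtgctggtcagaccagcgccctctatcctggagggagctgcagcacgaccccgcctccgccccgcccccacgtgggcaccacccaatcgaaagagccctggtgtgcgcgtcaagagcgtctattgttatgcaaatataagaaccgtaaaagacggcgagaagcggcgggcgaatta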

How the data were processed

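The members and lists were chosen with earlier results of these data known. Per the paper's methods and the submitters' processing notes, reads were trimmed (Trimmomatic 0.33), aligned (TopHat2 2.1.0), counted per gene (HTSeq 0.6.1) and scaled with edgeR, and the deposited CPM values were computed by the authors from the reads that each library has on genes. Whole reads were recovered for 100% of values (within 0.1 read) in each line and used for the count tests, of which edgeR's quasi-likelihood test called 1 gene, its likelihood ratio test 155 and DESeq2 177. limma (3.58.1, R 4.3.3) was fitted to log2(CPM + 1) of 12545 genes with a variance trend, 2-sided. Exact permutation tests, and permutation tests with 100000 resamples for correlations over 14 lines, used Python 3.11.15, numpy 2.4.6 and scipy 1.17.1, with matplotlib 3.10.9 for plots. edgeR was 4.0.16 and DESeq2 1.42.0. The main limma fit, both edgeR tests and DESeq2 were tried on simulated data, with the same spread set for all genes and no outlying line. The other settings and the fit with *Notch1* as the covariate were not.

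Named genes were all members, pathway genes with an adjusted p under 0.01 or else up to 4 per list with an unadjusted p under 0.05, the most abundant gene per list, and the 5 genes most like *Notch1* and *Nrarp* over 15 and over 14 lines. Those most like *Nrarp* over 15 lines are not reported here. Symbols were found for 12172 genes. Levels per length were planned on the table's length column, but this exceeds the merged exons by over 10% in 8098 of these genes (66.5%), so the longest coding transcript of the GRCm38 annotation was used instead. Positions in the table start within 1 base of the GRCm38 gene in 190 of 12172 genes, so gene positions are those of the GRCm38 annotation (GENCODE M21). The pair with the highest Spearman rho, SKO156.6 and SKO186.5 (0.987), had a chi-square per gene of 58.0 and was counted as 2 lines (lowest of all pairs within a genotype 55.8). A value of 3 reads is 0.138 CPM in the deepest and 0.618 CPM in the shallowest line.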

Additional observations from a re-analysis of the deposited data

Results flagged for a closer look

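In each genotype, the highest and lowest line of every member were compared with the rest of the group on log2(CPM + 1), by the gap to the nearest line as a share of the whole range. Of 20 groups, 6 held a line with a gap beyond the 95% critical value, where chance gives about 1 in 20. The library labelled SKO132 was that line for *Notch1*, at 31.3 CPM with the other *E2a-/-* lines at 1091 to 2266 CPM. It was so too for *Notch3* (32.2 CPM, others 286 to 728 CPM), *Dtx1* (0.221 CPM, others 180 to 866 CPM) and *Nrarp* (0 CPM, others 15.6 to 51.8 CPM). These 4 results come from 1 library and are not independent of each other. Its *Notch1* was known beforehand to stand far off, so the chance rate does not apply to them. The 20 groups also share the same lines, so no excess over chance is read from the count. Among DKO lines, *Notch2* was at 20.8 CPM in DKO170.2, with the others at 40.4 to 59.6 CPM. *Rbpj* was at 161 CPM in DKO241, with the others at 82.1 to 107 CPM.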

How the results depend on the processing

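Each member's fold change was recomputed under 26 alternatives, and all 26 kept the direction for *Notch2*, *Ptcra* and *Fbxw7*. For *Notch2* it ranged from 0.0647 without SKO156.6 to 0.68 with array weights, and was 0.12 with SKO156.6 and SKO186.5 averaged. By edgeR's quasi-likelihood test with TMM, log2 fold changes reversed to -0.11 for *Notch1*, -0.57 for *Dtx1*, -0.13 for *Nrarp* and 0.00969 for *Rbpj*. By the likelihood ratio test they were -0.13 for *Notch1*, -0.57 for *Dtx1*, -0.14 for *Nrarp* and -0.0109 for *Hes1*, and by DESeq2 -0.12 for *Notch1*, -0.58 for *Dtx1*, -0.14 for *Nrarp*, -0.00933 for *Hes1* and 0.00274 for *Rbpj*. With array weights they were -0.39 for *Dtx1*, -0.53 for *Nrarp* and -0.15 for *Heyl*. A pseudocount of 0.1 CPM in place of 1 gave 0.62 for *Nrarp*, 0.56 for *Dtx1* and 0.40 for *Heyl*. With 2 CPM the values were 0.0804, 0.17 and 0.15. Leaving out each line in turn gave ranges of -0.35 to 0.68 for *Notch1*, -0.0436 to 0.70 for *Notch3*, -0.87 to 0.71 for *Dtx1*, -0.49 to 0.46 for *Nrarp*, -0.11 to 0.42 for *Heyl* and -0.12 to 0.0145 for *Rbpj*. For the first 5 of these genes values below 0 came without SKO132, and for *Nrarp* also without DKO79.9. *Rbpj* was above 0 without DKO170.2 alone. *Hes1* ranged from 0.00104 without SKO95 to 0.43 without SKO115.2. DESeq2 was the only setting to call a member, *Fbxw7* (0.36, 1 member called). Of the other pathway genes, 1 was called with array weights, the likelihood ratio test and DESeq2, and 0 to 1 with each line left out, each time *Lef1*. With SKO132 added, Pearson r of *Notch1* became 0.91 with *Dtx1*, 0.75 with *Nrarp*, 0.59 with *Heyl*, 0.75 with *Ptcra* and 0.91 with *Notch3*, and these values rest on that library. In DKO lines alone r was -0.16 with *Hes1*, -0.19 with *Heyl*, 0.10 with *Ptcra* and 0.75 with *Notch3*, and in *E2a-/-* lines alone 0.0209 with *Ptcra* and -0.62 with *Notch3*. Without the lines farthest from the *Notch1* median it was 0.48 with *Ptcra*. The coding transcript length was chosen after seeing the data, in place of the table's length column, and merged exons were added with it. Mean CPM per kb of *Notch1* was 108 on merged exons and 35.2 on the length column, that of *Rbpj* 8.37 and 6.52, and that of *Fbxw7* 6.16 and 2.32. On the length column *Ptcra* was at 92.5 and *Notch3* at 61.0, both ahead of *Notch1*, with *Dtx1* at 33.3, *Hes1* at 22.5 and *Notch2* at 2.06. On merged exons *Notch3* was ahead of *Dtx1*, *Ptcra* ahead of *Hes1*, and *Nrarp* ahead of *Rbpj* and *Fbxw7*. Beyond this, the cause of these changes was not tested. Depth limits *Heyl*, with 23 reads in DKO713, and *Heyl*, *Nrarp*, *Dtx1* and *Ptcra* in the library labelled SKO132, where values under 3 reads (0.165 CPM) are not told apart from 0.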
